A study of Homo sapiens with 6 samples.

Results

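The spindle assembly checkpoint genes were examined in 8505C cells, an established human anaplastic thyroid cancer line, after knockdown of NUF2. The members were chosen by gene name: BUB1, BUB1B, BUB3, MAD1L1, MAD2L1, TTK, CDC20, MAD2L1BP and TRIP13. All 9 were among the 32985 genes of the deposited table, and all 9 passed the filter on low expression (a mean of at least 1 FPKM, fragments scaled by gene length and library size) that left 11725 genes for testing. Poly(A) RNA was sequenced, with 3 libraries of wild-type cells given control siRNA (siCtrl) and 3 libraries of cells given NUF2 siRNA (siNUF2). All were labelled 24 h, taken here as the time after transfection, which the labels do not spell out. A single siRNA sequence against NUF2 was given for the study, and all 6 libraries came from 1 cell line. The sources used here do not say whether the libraries of a group were separate cultures, so the p-values measure the spread between these libraries, which may be technical.

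The spindle assembly checkpoint delays anaphase until every chromosome is attached to microtubules. At a kinetochore without microtubules, the kinase TTK (MPS1) phosphorylates the scaffold KNL1, BUB3 binds the phosphorylated repeats and brings BUB1 and BUB1B (BUBR1), and MAD1L1 presents MAD2L1 for conversion to its closed form. MAD2L1, BUB1B and BUB3 then bind CDC20 in the mitotic checkpoint complex, which inhibits the anaphase-promoting complex (APC/C). The AAA+ ATPase TRIP13 and its adaptor MAD2L1BP (p31comet) take this complex apart. NUF2 is the partner of NDC80 in the arm of the kinetochore that grips microtubules and to which TTK is recruited. The mRNAs of several checkpoint genes are known to rise in G2 and mitosis, which need not hold for every member.

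The sequence that the siRNA targets in NUF2 is shown first because its letters also occur in checkpoint transcripts. It was read on GRCh38 from exon 6 of 14, a coding exon, of NUF2 in its canonical GENCODE release 44 transcript. The capitals mark the 7 letters that pair with positions 2 to 8 of the antisense strand, its seed.
NUF2, chr1:163336814-163336834, + strand: gccgtgaaacgtaTATGGAAt

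The same 7 letters were searched, on the transcript strand, in the canonical transcripts of the members. They occurred in the 3′ UTR of 2 of 9 members, BUB3 and MAD2L1, and in the coding sequence of 2 of 9, BUB1 and BUB1B. The other 5 members held them in neither region. Among all 10296 tested genes with a canonical coding transcript, 14.9% held the letters in the 3′ UTR and 14.7% in the coding sequence. The stretches of 30 bases around the matches that lie within 1 exon are given with the match in capitals.
BUB3, 3′ UTR, exon 8 of 8, chr10:123165069-123165098, + strand: agtggtttctcTATGGAAagctttgtttgc
MAD2L1, 3′ UTR, exon 5 of 5, chr4:120058739-120058768, - strand: cttcatatcttTATGGAAtaagtggaccac
BUB1B, coding sequence, exon 23 of 23, chr15:40220699-40220728, + strand: gaacaaagcctTATGGAAggtagggaagtt

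A match of 7 letters describes the sequence and does not show that an siRNA acts there. The 3′ UTR of the canonical BUB3 transcript is 6632 nt long and that of MAD2L1 is 4495 nt long, whereas those of the other 7 members run from 74 nt in CDC20 to 1017 nt in TRIP13.

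The targeted gene was checked before the members. In siCtrl, NUF2 was at 14.8, 14.5 and 12.2 FPKM, and its siNUF2 values were 1.53, 2.05 and 1.56 FPKM (always in the order of libraries 1, 2 and 3). The groups were far apart, with a log2 fold change of -2.99 ± 0.17 (SE, n = 3 per group) and an adjusted p of 0.00051 (edgeR quasi-likelihood test, Benjamini-Hochberg over all genes tested). Total counts ran from 61257859 to 69755291 per library. The thyroid and epithelial marker list, which also holds the mesenchymal gene VIM, summed to 1170 to 1270 FPKM in siCtrl and 1050 to 1230 FPKM in siNUF2. Most of this came from VIM (452 to 521 FPKM) and the keratins KRT7 (354 to 512 FPKM), KRT18 (137 to 205 FPKM) and KRT8 (72.0 to 99.2 FPKM). The thyroid factor NKX2-1 was at 14.6 to 21.5 FPKM, while PAX8, FOXE1, TG, SLC5A5, EPCAM and CDH1, 6 of the 11 genes, were under 1 FPKM in every library. Markers of other cell types summed to 6.95 to 28.6 FPKM in siCtrl and 8.15 to 10.9 FPKM in siNUF2, and 6 of 11 were under 1 FPKM in every library. HBB was at 12.4 and 4.24 FPKM and LYZ at 7.47 and 0.434 FPKM in library 1 of siCtrl and siNUF2, against at most 0.0728 FPKM for HBB and 0 for LYZ in the other 4 libraries. The part of this difference in any result below was not tested, and values without each of these 2 libraries stand beside the calls they change.

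Among the 9 checkpoint transcripts, BUB3 fell in siNUF2 to 63.2% of its mean FPKM in siCtrl, and none was called higher by edgeR without the replicate block, by DESeq2 or by limma. The other 8 did not pass the test, with adjusted p from 0.154 to 0.895 and 95% intervals of the log2 fold change that lay between -0.47 and 0.52. Thus 1 of 9 members was called, where 3.99% of all genes tested (468 of 11725) were called. By direction, 289 genes (2.46%) were lower and 179 genes (1.53%) were higher. Without siCtrl library 1 these 468 calls became 165, without siNUF2 library 1 they became 124, and no member was called by edgeR in either case. Leaving out any other single library gave 176 to 251 calls, BUB3 among them. An unadjusted p under 0.05 was reached by 2 of 9 members, BUB3 and BUB1B, and by 18.2% of all genes tested. DESeq2 called 8.47% and limma on log2(FPKM + 1) called 3.08% of the genes they gave an adjusted p, and each called BUB3 alone among the members. The median log2 fold change of the members was -0.03, with 5 below 0 and 4 above, and that of all genes tested was 0.01. The median size of the change regardless of direction was 0.19 for the members and 0.17 for all genes. The FPKM of the 2 groups did not overlap for 3 members (BUB3, BUB1B and MAD2L1) of 9, and for 23.9% of all genes tested. In RNA from a mixed population, a change in the share of cells in G2 and mitosis and a change in RNA per cell cannot be told apart.

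**Figure D1:**
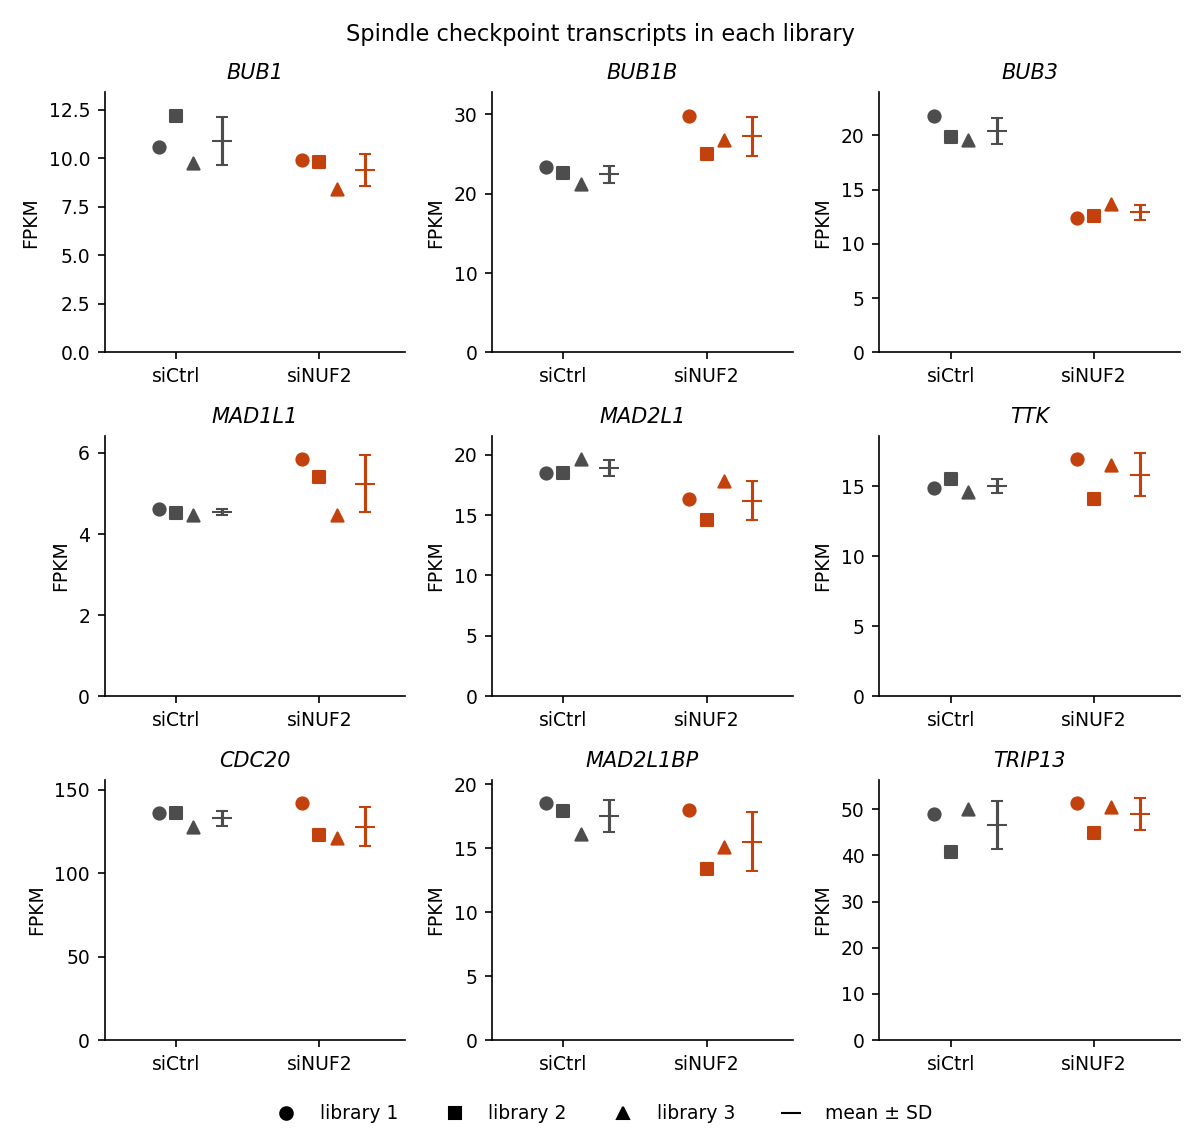
FPKM (vertical axes, starting at 0) of each checkpoint transcript in the 3 siCtrl and 3 siNUF2 libraries, with the symbol giving the library number and the bars the mean ± SD of each group (n = 3). BUB3 is the transcript whose groups lie farthest apart, at 19.6 to 21.8 FPKM in siCtrl and 12.4 to 13.7 FPKM in siNUF2.

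BUB3, the WD-repeat protein that carries BUB1 and BUB1B to kinetochores (chr10:123154402-123170467, + strand), was at 21.8, 19.8 and 19.6 FPKM in siCtrl libraries 1, 2 and 3. It was at 12.4, 12.6 and 13.7 FPKM in siNUF2 libraries 1, 2 and 3. Every siNUF2 library lay below every siCtrl library, and the means were 20.4 ± 1.21 and 12.9 ± 0.701 FPKM (SD, n = 3). The log2 fold change was -0.64 ± 0.09 (SE; 95% interval from -0.86 to -0.43; adjusted p = 0.0114, edgeR). Of all genes tested, 6.41% changed by a larger amount in either direction. The difference between libraries of the same number, as log2 CPM (counts scaled by library size), was -0.81, -0.62 and -0.50 for numbers 1, 2 and 3. The drop was therefore seen in 3 of 3 pairs and was largest for the pair in which HBB and LYZ were present. Without siCtrl library 1 the log2 fold change was -0.59 (adjusted p = 0.0539, edgeR), and without siNUF2 library 1 it was -0.61 (adjusted p = 0.0611, edgeR), so the size was kept and the call was lost in both cases. With any other single library left out the call was kept, in 4 of 6 such fits (adjusted p from 0.0302 to 0.0406, edgeR). The counts behind these values were 7860 to 14363 per library.

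BUB1 (chr2:110637528-110678063, - strand), the kinase that BUB3 brings to KNL1 and that marks centromeric histone H2A, was at 10.6, 12.2 and 9.77 FPKM in siCtrl and at 9.90, 9.83 and 8.44 FPKM in siNUF2. The groups overlapped, since 2 siNUF2 libraries lay just above siCtrl library 3. The log2 fold change was -0.19 ± 0.12 (SE, adjusted p = 0.459, edgeR), and it was below 0 in 3 of 3 same-numbered pairs.

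BUB1B (chr15:40161023-40221038, + strand), which encodes BUBR1, the member of the checkpoint complex that blocks CDC20 as a pseudosubstrate, was at 23.4, 22.6 and 21.2 FPKM in siCtrl. Its siNUF2 values were 29.8, 25.0 and 26.8 FPKM, all above the siCtrl values. The log2 fold change was 0.30 ± 0.10 (SE; 95% interval from 0.08 to 0.52), and its adjusted p of 0.154 (edgeR) missed the threshold. Same-numbered pairs differed by 0.36, 0.18 and 0.36 on the log2 scale. Libraries of the same number deviated together, and once the replicate number entered the model as a block BUB1B passed the test (log2 fold change 0.30, adjusted p = 0.0357, edgeR). With that block, 2 of 9 members were called, BUB3 lower and BUB1B higher, where 14.5% of all genes tested (1705) were called. PAK6, which overlaps BUB1B on the same strand in the table, had 13 to 52 counts per library, against 7025 to 10296 counts for BUB1B.

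BUB1B and BUB3, which bind each other in the checkpoint complex, thus had log2 fold changes of opposite sign, although the call of BUB1B depended on the block. The BUB1B/BUB3 ratio of FPKM was 1.07, 1.14 and 1.08 in siCtrl and 2.40, 1.98 and 1.95 in siNUF2. The ratio was higher in every siNUF2 library, with a difference of 0.94 on the log2 scale between the group means. By the exact two-sided permutation test over libraries p was 0.1, the smallest value that 3 libraries against 3 can give, and 0.2 after adjustment over the 6 ratios computed, so this test cannot bring a ratio under 0.05 with these libraries.

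**Figure D2:**
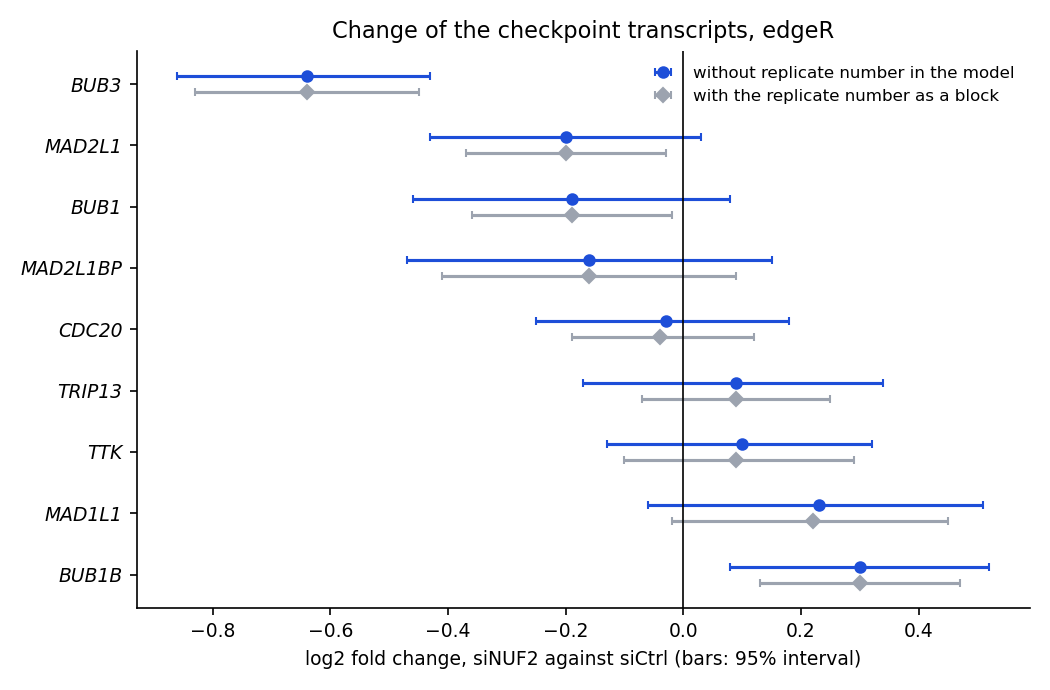
Log2 fold change of siNUF2 against siCtrl (horizontal axis) for the 9 checkpoint transcripts, with 95% intervals from edgeR without (circles) and with (diamonds) the replicate number as a block. The interval of BUB3 runs from -0.86 to -0.43 without the block, and that of BUB1B from 0.08 to 0.52.

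The template of MAD2 conversion and its substrate did not pass the test. MAD1L1 (chr7:1815793-2233243, - strand), which encodes the kinetochore-bound MAD1, was at 4.63, 4.52 and 4.48 FPKM in siCtrl and at 5.84, 5.42 and 4.47 FPKM in siNUF2. The first 2 siNUF2 libraries were above all siCtrl libraries and the third was level with the lowest of them. The log2 fold change was 0.23 ± 0.12 (SE, adjusted p = 0.394, edgeR), and 0.15 without siNUF2 library 1. AC069288, which overlaps MAD1L1 on the same strand, had 148 to 1497 counts per library, AC104129 on the opposite strand had 0 to 4, and MAD1L1 itself had 2326 to 3272. How reads on shared bases were assigned, and whether strand was used, is not given in the sources used here.

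MAD2L1 (chr4:120055623-120066858, - strand), which encodes MAD2, was at 18.5, 18.5 and 19.6 FPKM in siCtrl. In siNUF2 it was at 16.3, 14.6 and 17.8 FPKM. All siNUF2 values lay below the siCtrl values, but the log2 fold change of -0.20 ± 0.10 (SE; 95% interval from -0.43 to 0.03) had an adjusted p of 0.360 (edgeR) and of 0.113 with the replicate block. MAD2L1 and BUB3 are the 2 members with the 7 seed letters in the 3′ UTR shown above, and the former missed the test while the latter passed. The MAD2L1/MAD1L1 ratio of FPKM was 3.99, 4.10 and 4.39 in siCtrl and 2.79, 2.70 and 3.99 in siNUF2, where library 3 came within rounding of the lowest siCtrl value. The difference was -0.42 on the log2 scale (exact permutation p = 0.1, adjusted p = 0.2 over the 6 ratios).

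TTK (chr6:80003887-80042527, + strand), the kinase at the head of the pathway, was at 14.9, 15.5 and 14.6 FPKM in siCtrl and at 16.9, 14.1 and 16.5 FPKM in siNUF2. The siNUF2 values lay on both sides of the siCtrl range. The log2 fold change was 0.10 ± 0.10 (SE, adjusted p = 0.683, edgeR). The BUB1/TTK ratio of FPKM had means of 0.723 ± 0.0588 in siCtrl and 0.599 ± 0.0943 in siNUF2 (SD, n = 3), which overlapped (exact permutation p = 0.2, adjusted p = 0.24).

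CDC20 (chr1:43358981-43363203, + strand), the APC/C activator on which the checkpoint acts, was the most abundant member in FPKM. It was at 136, 136 and 128 FPKM in siCtrl and at 142, 123 and 121 FPKM in siNUF2. The groups overlapped and the log2 fold change was -0.03 ± 0.09 (SE; 95% interval from -0.25 to 0.18; adjusted p = 0.895, edgeR), the smallest change among the 9 members. Without siNUF2 library 1 it was -0.10. It had the highest counts of any member, 17446 to 22163 per library. The ratio of BUB1B to CDC20 was 0.172, 0.166 and 0.165 in siCtrl and 0.210, 0.203 and 0.222 in siNUF2, with no overlap (exact permutation p = 0.1, adjusted p = 0.2). The ratio of MAD2L1 to CDC20 overlapped, with means of 0.142 ± 0.00984 and 0.127 ± 0.0179 (SD, n = 3; exact permutation p = 0.3, adjusted p = 0.3).

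The genes that take the checkpoint complex apart did not pass the test either. MAD2L1BP (chr6:43629540-43640941, + strand) was at 18.5, 17.9 and 16.1 FPKM in siCtrl and at 18.0, 13.4 and 15.1 FPKM in siNUF2, and the groups overlapped. Its log2 fold change was -0.16 ± 0.13 (SE, adjusted p = 0.620, edgeR), and -0.27 without siNUF2 library 1, with the lowest counts of any member, 1994 to 2753 per library. TRIP13 (chr5:892884-918120, + strand) was at 49.0, 40.8 and 50.1 FPKM in siCtrl and at 51.3, 44.9 and 50.5 FPKM in siNUF2. Library 2 was the lowest of its group in both conditions, and the log2 fold change was 0.09 ± 0.11 (SE, adjusted p = 0.747, edgeR). AC122719, on the opposite strand of TRIP13, had at most 47 counts per library. The TRIP13/MAD2L1BP ratio averaged 2.68 ± 0.414 in siCtrl and 3.18 ± 0.284 in siNUF2 (SD, n = 3) and overlapped between the groups (exact permutation p = 0.2, adjusted p = 0.24).

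**Figure D3:**
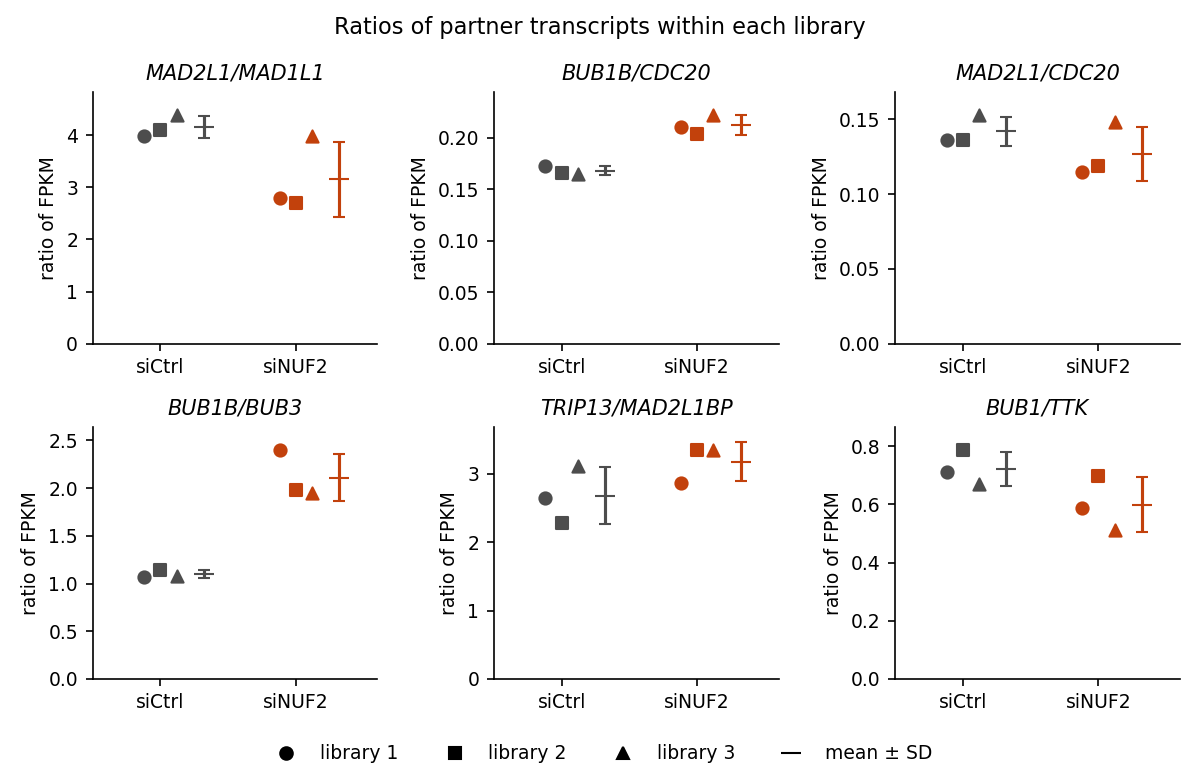
Ratios of the FPKM of 2 checkpoint transcripts (vertical axes, starting at 0) within each of the 3 siCtrl and 3 siNUF2 libraries, with the symbol giving the library number and the bars the mean ± SD (n = 3). The BUB1B/BUB3 ratio lies between 1.07 and 1.14 in siCtrl and between 1.95 and 2.40 in siNUF2.

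Levels were compared between members per length. In siCtrl the order by mean FPKM was CDC20 (133 ± 4.43), TRIP13 (46.6 ± 5.11), BUB1B (22.4 ± 1.12), BUB3 (20.4 ± 1.21), MAD2L1 (18.9 ± 0.661), MAD2L1BP (17.5 ± 1.22), TTK (15.0 ± 0.481), BUB1 (10.9 ± 1.24) and MAD1L1 (4.54 ± 0.0799; SD, n = 3). The neighbours from BUB1B to MAD2L1BP overlapped in their values, and the other neighbours did not. In siNUF2, BUB3 at 12.4 to 13.7 FPKM lay below all libraries of TTK (14.1 to 16.9 FPKM) and MAD2L1 (14.6 to 17.8 FPKM), where in siCtrl it had been level with or above both. The FPKM scale depends on the length assigned to each gene. The length that the counts and FPKM together imply was computed with the summed counts as library size. It was 1.23 times the canonical transcript for MAD2L1, 1.24 times for BUB3, 1.95 times for BUB1 and 3.13 times for MAD1L1. In that order the implied lengths were 6430, 9527, 7349 and 8438 nt. The merged exons of all annotated transcripts cover 5517, 8175, 6304 and 6955 nt. The implied lengths exceed these too and depend on the library size assumed, so the multiples serve only to compare genes.

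Per kilobase of the canonical transcript, a choice made after the values were seen, the CPM in siCtrl gave another order below the top 3. CDC20 (189 ± 5.35), TRIP13 (74.1 ± 8.17) and BUB1B (31.7 ± 1.38) were followed by MAD2L1BP (29.6 ± 1.88), TTK (26.9 ± 0.839), BUB3 (25.2 ± 1.33), MAD2L1 (23.2 ± 0.950), BUB1 (21.2 ± 2.38) and MAD1L1 (14.2 ± 0.147; SD, n = 3). MAD1L1 was the lowest on both scales, but the MAD2L1/MAD1L1 ratio in siCtrl was 4.16 by FPKM and 1.63 by canonical length. TTK then stood above BUB3, although their values overlapped. In siNUF2, BUB3 at 15.9 ± 1.01 was then level with MAD1L1 at 16.4 ± 2.04 CPM per kilobase. A change between siCtrl and siNUF2 within a gene does not depend on this choice.

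**Figure D4:**
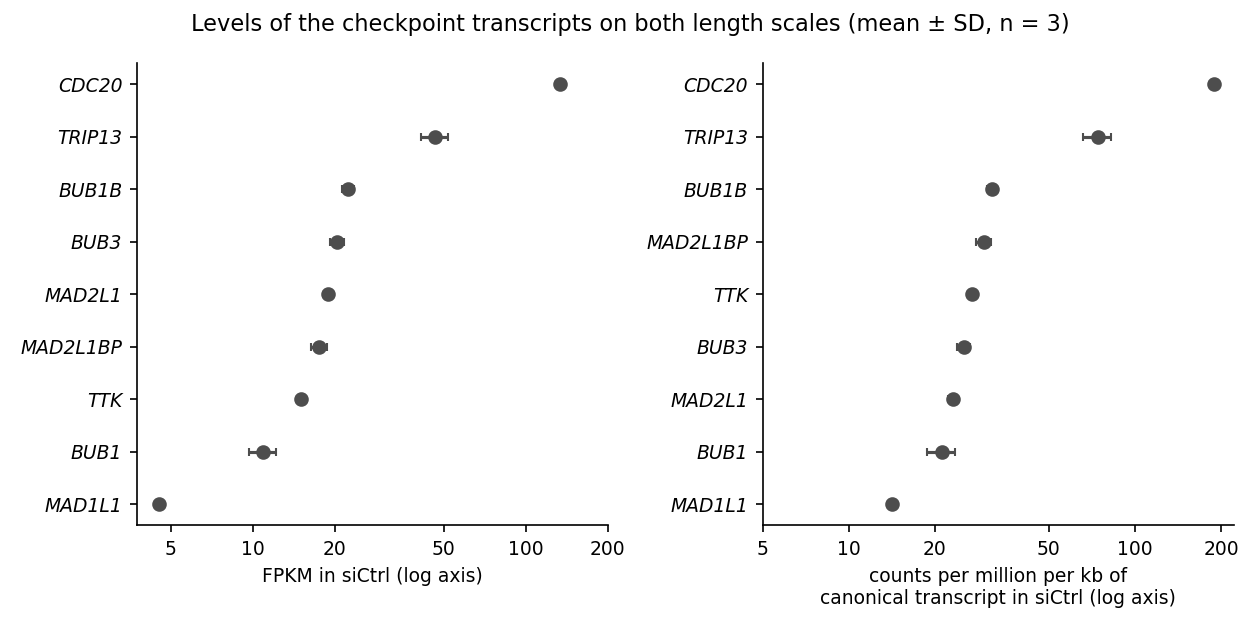
Mean level of each checkpoint transcript in the 3 siCtrl libraries (± SD) in FPKM (left) and in CPM per kilobase of the canonical transcript (right), both on a log axis. CDC20 and TRIP13 lead on both scales and MAD1L1 is the lowest on both, at 4.54 FPKM and 14.2 CPM per kilobase.

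The promoters of the members were read for the CHR, the cell cycle homology region bound by DREAM and MuvB complexes in many G2/M genes, spelled TTTGAA or TTCGAA, on both strands. In the RefSeq windows of GRCh38.p14, from 250 bases before to 50 bases after the start, 7 of the 9 members were matched (BUB3 and TTK were not). TTTGAA occurred in 15.2% and TTCGAA in 1.45% of all 35116 promoter windows, and 16.4% held either. Of the 7 matched members, BUB1B, CDC20 and MAD2L1 held TTTGAA, BUB1 and TRIP13 held TTCGAA, MAD2L1BP held TTTGAA at the second of its 2 starts on the opposite strand, and MAD1L1 held neither. The windows of 30 bases with the letters nearest the start, 5′ to 3′ on the strand of the gene with the motif in capitals, show how close to the start they lie in 5 members.
BUB1, chr2:110678045-110678074, - strand: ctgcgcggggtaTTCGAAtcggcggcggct
BUB1B, chr15:40161034-40161063, + strand: gggaccgttaaaTTTGAAacttggcggcta
CDC20, chr1:43358904-43358933, + strand: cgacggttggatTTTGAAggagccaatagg
MAD2L1, chr4:120066807-120066836, - strand: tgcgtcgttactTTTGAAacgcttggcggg
TRIP13, chr5:892875-892904, + strand: tcgcgcggcagaTTCGAAgctagggcgggg

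Counting the annotated start as 1 with no 0, the motif began at 2 in BUB1, -23 in BUB1B, -65 in CDC20, 25 in MAD2L1 and 4 in TRIP13. CCAAT, the letters of the NF-Y box, occurred at 2 places in BUB1, at 2 in CDC20 and at 1 in MAD2L1, in none of the other matched members, and in 34.6% of all windows. The 5 members with the letters near the start had log2 fold changes from -0.20 (MAD2L1) to 0.30 (BUB1B), none of which passed the test without the replicate block. The letters describe these windows and say nothing of which factors were bound in 8505C cells.

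The other genes of the pathway were read from 7 lists, which were chosen with earlier results of these data known. Of 88 distinct genes tested, 6 were called (6.82%, against 3.99% of all genes), 2 higher and 4 lower, with a median log2 fold change of 0.04. NUF2 itself is 1 of the 6, and 5 of the 87 others were called. Without siNUF2 library 1, 3 of the 88 were called, where 124 of all 11725 genes tested were. With the replicate block 20 of the 88 were called, where 14.5% of all genes were.

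At the kinetochore, the scaffold and RZZ list (14 tested, median -0.10) held 1 call in each direction. ZW10, the subunit of the RZZ complex that keeps MAD1-MAD2 and dynein at unattached kinetochores, was at 5.29, 5.52 and 5.84 FPKM in siCtrl and at 13.8, 13.5 and 13.9 FPKM in siNUF2. It rose to 248% of the siCtrl mean (log2 fold change 1.33 ± 0.11 SE, adjusted p = 0.00149, edgeR) and was called with any 1 library left out. The call in the other direction was NUF2. With the replicate block SPDL1, the Spindly adaptor of dynein, was also lower (log2 fold change -0.35, adjusted p = 0.0193, edgeR). The coding sequence of SPDL1 holds the 7 seed letters at 1 place, and so does that of ZW10, which rose.

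Downstream of the checkpoint, the list of the APC/C and its E2 enzymes (18 tested, median -0.03) held 1 lower gene. CDC27, the APC3 subunit to which CDC20 docks, was at 18.2, 18.2 and 17.4 FPKM in siCtrl and at 10.8, 10.1 and 12.0 FPKM in siNUF2. It fell to 61.2% (log2 fold change -0.69 ± 0.10 SE, adjusted p = 0.00947, edgeR), close in size to BUB3, and without siNUF2 library 1 the adjusted p was 0.0540. The canonical CDC27 transcript holds the 7 seed letters at 2 places in its 3′ UTR, as 2.57% of genes do at 2 or more places. Of the pathway genes, ANAPC10 and ZNF207 also hold 2 matches in the 3′ UTR, and their log2 fold changes were -0.04 (adjusted p = 0.941) and 0.11 (adjusted p = 0.710, edgeR). With the replicate block ANAPC13 of this list was also lower (log2 fold change -0.33, adjusted p = 0.0250, edgeR). Its 3′ UTR holds the letters at 1 place, where 14.9% of genes hold them at 1 or more. The CDC27 stretches are shown beside those of BUB3 above, with no test of a link between match and change.
CDC27, 3′ UTR, exon 19 of 19, chr17:47120585-47120614, - strand: gaaccattagaTATGGAAaatagtgatgaa
CDC27, 3′ UTR, exon 19 of 19, chr17:47117940-47117969, - strand: tcattaaaggaTATGGAAaatccaaataag

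Among the cofactors and phosphatases (14 tested, median 0.09), PPP1CB rose and PPP2R5A and PPP2R5E fell. PPP2R5A, a B56 subunit of the phosphatase PP2A, of which several bind BUB1B, was at 4.67, 6.05 and 5.48 FPKM in siCtrl and at 1.94, 1.50 and 1.66 FPKM in siNUF2. That is 31.5% of the siCtrl mean (log2 fold change -1.65 ± 0.17 SE, adjusted p = 0.00377, edgeR), and the call was kept with any 1 library left out. PPP2R5E, another B56 subunit, was at 7.69, 7.90 and 8.27 FPKM in siCtrl and at 5.57, 4.95 and 5.64 FPKM in siNUF2 (log2 fold change -0.54 ± 0.09 SE, adjusted p = 0.0203, edgeR). PPP1CB, a catalytic subunit of the phosphatase PP1 that counteracts checkpoint kinases, was at 21.2, 22.5 and 20.6 FPKM in siCtrl and at 28.7, 27.9 and 29.0 FPKM in siNUF2 (log2 fold change 0.43 ± 0.08 SE, adjusted p = 0.0311, edgeR). The calls of PPP2R5E and PPP1CB were lost with any 1 library left out, at adjusted p from 0.0537 to 0.0828 and from 0.0659 to 0.134 (edgeR), with log2 fold changes that kept their direction. The replicate block added 3 higher genes of this list, PPP1CC (0.27, adjusted p = 0.0358), CENPF (0.31, adjusted p = 0.0250) and KIF18A (0.41, adjusted p = 0.0172, edgeR, log2 fold changes). The 7 seed letters occurred in the coding sequence of PPP2R5A and ZW10, in both the coding sequence and the 3′ UTR of PPP2R5E, and in neither region of PPP1CB. List genes not called without the block held them too. In the 3′ UTR these were also MCM5 (log2 fold change 0.32), PPP2R5C (0.11), NUSAP1 (0.06), MCM4 (-0.01), ZWILCH (-0.09) and NSL1 (-0.18). In the coding sequence they included KNTC1 (0.19) and TPR (0.03), with 3 matches each. A link between match and change was not tested.

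**Figure D5:**
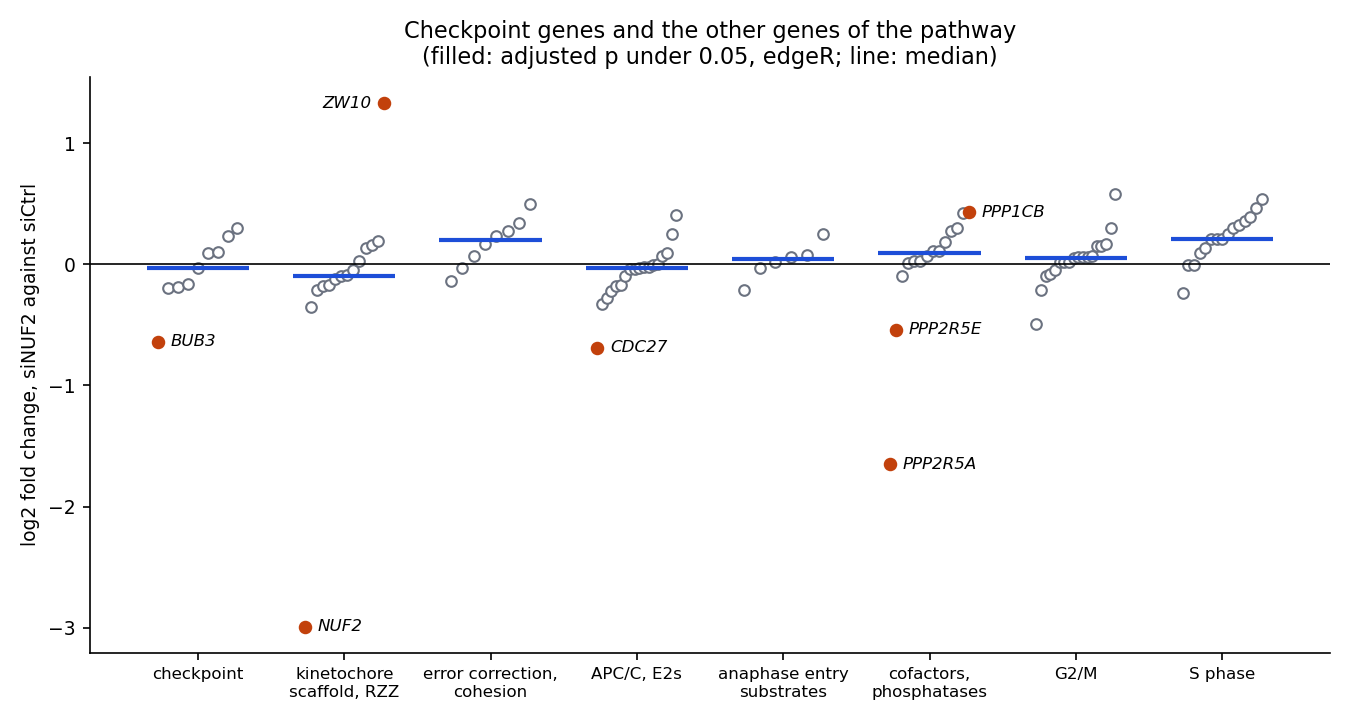
Log2 fold change of siNUF2 against siCtrl (vertical axis) for every tested gene of the checkpoint set and of the 7 other lists, each point a gene, filled where the adjusted p of edgeR was under 0.05, with a line at the median of each list. The medians lie between -0.10 and 0.21, and the filled points are BUB3, NUF2, ZW10, CDC27, PPP1CB, PPP2R5A and PPP2R5E.

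The remaining 4 lists held 0 calls by edgeR without the block, and counts at an unadjusted p under 0.05 and by other tools stand beside them. In the error correction and cohesion list (8 tested, median 0.20) the smallest p belonged to BIRC5, which encodes survivin of the chromosomal passenger complex, at 19.7, 25.1 and 23.8 FPKM in siCtrl and 30.3, 33.2 and 32.1 FPKM in siNUF2 (log2 fold change 0.50 ± 0.11 SE, adjusted p = 0.0548, edgeR). In this list 2 genes had an unadjusted p under 0.05, DESeq2 called 1 higher, limma called 0, and edgeR with the replicate block called 2 higher. Over all genes these shares were 18.2% at an unadjusted p, 8.47% by DESeq2, 3.08% by limma and 14.5% with the block. The list of APC/C substrates of anaphase entry and their partners (6 tested, median 0.04) ran from -0.21 to 0.25. Its substrates include the cyclins B and securin, whose loss ends metaphase, and CDK1 and ESPL1 are partners. The smallest p belonged to CDK1, the kinase that cyclins B activate, at 23.4, 25.2 and 23.8 FPKM in siCtrl and 19.1, 22.3 and 20.3 FPKM in siNUF2 (log2 fold change -0.21 ± 0.10 SE, adjusted p = 0.312, edgeR). None of the 6 genes had an unadjusted p under 0.05 in edgeR, and 0 were called with the block, by DESeq2 or by limma.

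Cell cycle markers were set beside the members because several checkpoint mRNAs vary over the cycle. The 18 G2/M markers had a median log2 fold change of 0.05 and ran from -0.49 to 0.58, with 13 above 0, and their smallest p belonged to CDC25C, the phosphatase that activates CDK1 (log2 fold change -0.49 ± 0.11 SE, adjusted p = 0.0529, edgeR). The 15 S-phase markers had a median of 0.21 with 12 above 0, and the smallest p belonged to RRM2, a subunit of ribonucleotide reductase (log2 fold change 0.54 ± 0.13 SE, adjusted p = 0.0647, edgeR). An unadjusted p under 0.05 was reached by 3 of 18 G2/M and 4 of 15 S-phase markers, and by 18.2% of all genes. The calls that follow stand against 8.47% of all genes by DESeq2, 3.08% by limma and 14.5% by edgeR with the block. Of the G2/M markers DESeq2 called 1 higher and 1 lower, limma called 0 higher and 1 lower, and edgeR with the block called 2 higher and 1 lower. Of the S-phase markers DESeq2 called 1 higher, limma 0, and edgeR with the block 5 higher. By flow cytometry, the paper reported an accumulation of anaplastic thyroid cancer cells in G2/M after NUF2 knockdown. The part of the cell cycle in the changes of BUB3 and BUB1B was not tested.

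The variation of the members among themselves was described by correlation. Across the 36 pairs of members, the correlation of their deviations from the group means (Pearson's r over 6 libraries, which share depth and library number) had a median of 0.21, with 10 pairs above 0.5 and 4 below -0.5. The mean standardized profile of the members was 0.25, 0.09 and -0.13 for the siCtrl libraries and 0.58, -0.58 and -0.20 for siNUF2, so the highest and the lowest library were both of siNUF2. The genes whose profile was most like it over the 6 libraries were HNRNPK (r = 0.993), HSCB (0.993), BNIP1 (0.988), VGF (0.979) and MAML3 (0.977), and the least like were AGO1 (-0.996), RPL24P2 (-0.988), LINC00339 (-0.982), BCL2L12 (-0.979) and BLOC1S4 (-0.978). These are the ends of a ranking of many genes over 6 points and are given as a description.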

How the data were processed

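The authors used fastp for quality control, HISAT2 for alignment to GRCh38 and StringTie for assembly and quantification. Versions, strand setting and the counting tool are not given in the sources used here. They deposited whole-number counts and FPKM per gene for 6 libraries. From the deposited counts, edgeR 4.0.16 in R 4.3.3 (TMM, quasi-likelihood test, genes with mean FPKM of at least 1) compared siNUF2 with siCtrl, and Benjamini-Hochberg adjustment covered all 11725 genes. Ratios of deposited FPKM were tested by exact permutation of libraries. The members and lists were chosen with earlier results of these data known. The text names all members, NUF2, every called gene of a list or else the one with its smallest p, overlapping genes and both ends of the likeness ranking. Deviations from group means correlated at 0.3445 to 0.4465 between libraries of the same number and at -0.2631 to -0.1414 otherwise. From these data, the number defined the same-numbered pairs and served as a block in an alternative edgeR fit. The main edgeR fit and the permutation tests given here left the number out. Replicates were not copies (chi-square per degree of freedom 54.67 to 77.72). limma 3.58.1 and DESeq2 1.42.0 served as alternatives, and the edgeR code was tested on simulated counts. Sequences came from GRCh38 with GENCODE release 44 and from RefSeq. A marker of the thyroid list is not reported here.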

Additional observations from a re-analysis of the deposited data

How the results depend on the processing

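Of 237 alternative values, 212 kept their direction and their side of the threshold or stayed near the value reported. Many of these could hardly cross the threshold, among them the ratios, whose permutation p cannot fall under 0.05. The count is therefore no measure of how stable the calls are. The number of genes called was 468, and 1705 with the replicate block, 972 with DESeq2, 188 with no filter on FPKM, 702 by the study's rule on FPKM and 124 to 251 with 1 library left out. The study's rule asks for a fold change over 2 or under 0.5 and an F-test p under 0.05, used here unadjusted. It was applied to all 32985 genes, with the F-test on log2(FPKM + 1), a scale the paper does not state. Of the members, 2 were called with the replicate block, 0 by the study's rule and 0 to 1 with 1 library left out. BUB3, at 63.2% of its siCtrl mean, does not reach the fold change of the study's rule. Pathway genes called were 20 with the block, 12 with DESeq2 and 3 to 4 with 1 library left out. The log2 fold change of BUB3 ran from -0.69 to -0.59 with 1 library left out, and its adjusted p from 1.06e-06 (DESeq2) to 0.0323 (no filter) under the other settings. BUB1B passed with the replicate block (0.30), the only member whose call the block changed. CDC20 ran from -0.10 to 0.01, turning above 0 without siNUF2 replicate 3 (0.01), and TRIP13 from -0.0012 to 0.15, turning below 0 without siCtrl replicate 2 (-0.0012); neither was called under any setting. The cause of these shifts was not tested.

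With 3 libraries a group, the smallest p of the permutation tests of ratios was 0.1. Every member had at least 1994 counts per library.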
